A study of Mus musculus with 14 samples.

Results

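Interferon-stimulated genes are the genes a cell switches on when an interferon reaches its surface. A list of 49 of them was followed in the brains of newborn mice with and without Capn15, a calpain of the small optic lobes family of intracellular cysteine proteases. A gene was a member when its symbol in the gene annotation of the count table matched the list. By that rule 47 of the 49 were found among the 17927 genes of the table, and Zbp1 and Oas2 were not analysed here.

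Whole brains were taken at postnatal day 2 (P2) from untreated C57BL/6J mice. There were 7 wild-type (WT) animals and 7 Capn15 KO animals, the latter Capn15-/- from the Capn15(lacZ-Neo) line. Each library is 1 brain, the animals came from 6 litters called A to F here, and each replicate number marks a WT and a KO brain of the same litter (litter A holds pair 1, litter B pairs 2 and 3, and litters C, D, E and F pairs 4, 5, 6 and 7). Litter B held 2 brains of each genotype, so its pairs 2 and 3 rest on the replicate numbers alone. The WT group held 2 females and 5 males, the KO group 4 females and 3 males, and only pair 7 was of 1 sex. The allele is not tied to a Cre driver or to a cell type.

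Total counts ran from 37620954 to 70910163 per library, with a median of 43181055 in WT and 50059045 in KO. Capn15 itself ranged from 18.8 to 27.3 CPM (counts scaled to library size) in WT, median 26.2, and from 12.2 to 20.2 in KO, median 13.9. The litter F pair went against its labels, with 18.8 CPM in the library labelled WT replicate 7 and 20.2 in the library labelled KO replicate 7. The other 6 WT brains lay between 24.98 and 27.3 CPM and the other 6 KO brains between 12.2 and 14.5, so results are also given without litter F. The labels give the cell type as neurons, yet markers of microglia, endothelium, leptomeninges, choroid plexus and red blood cells were all counted in every library, as in whole tissue. In such bulk RNA, fewer cells of a type and less RNA per cell cannot be told apart.

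Type I interferons bind a receptor pair, Ifnar1 and Ifnar2, whose kinases Jak1 and Tyk2 phosphorylate STAT proteins, Stat2 among them. Stat2 and Irf9 belong to a complex that enters the nucleus and binds the interferon-stimulated response element in the promoters of its target genes. Interferon gamma acts through another receptor and another promoter element, the gamma-activated site. The targets include RNA sensors, further transcription factors, proteins that block viral translation or entry, large GTPases that attack vacuoles holding pathogens, and the ubiquitin-like protein Isg15 with its enzymes. In brain, microglia, endothelium, meninges and neurons can all respond, and a low tonic level is present without infection.

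The response element is visible in the members' own promoters, and it is shown for Isg15 and for members of the IFIT, IRG, GBP and OAS families, whose levels are given further on. In each stretch, capitals mark runs of GAAANNGAAA or, on the other strand, TTTCNNTTTC, where N is any base. Sequences are from RefSeq, build GRCm38.p6, read 5′ to 3′ along the strand of the gene. Start sites are those of RefSeq, and the stretches of Irgm1 and Irgm2 lie inside the GENCODE M21 bounds of these genes.
Isg15, chr4:156200856-156200915, minus strand: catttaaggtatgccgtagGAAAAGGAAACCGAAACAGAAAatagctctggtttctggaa
Ifit1, chr19:34640769-34640828, plus strand: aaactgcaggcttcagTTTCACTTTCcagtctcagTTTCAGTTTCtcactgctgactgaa
Irgm1, chr11:48871428-48871457, minus strand: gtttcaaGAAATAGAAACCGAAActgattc
Irgm2, chr11:58214888-58214947, plus strand: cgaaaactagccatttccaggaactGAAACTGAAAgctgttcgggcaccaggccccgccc
Igtp, chr11:58199496-58199555, plus strand: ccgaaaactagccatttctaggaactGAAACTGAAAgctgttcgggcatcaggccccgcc
Gbp3, chr3:142559992-142560021, plus strand: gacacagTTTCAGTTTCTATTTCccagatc
Gbp7, chr3:142530258-142530317, plus strand: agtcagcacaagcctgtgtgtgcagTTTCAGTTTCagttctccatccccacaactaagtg
Oas1a, chr5:120907526-120907585, minus strand: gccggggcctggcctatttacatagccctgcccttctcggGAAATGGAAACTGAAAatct

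Promoter windows of 250 bases before to 50 bases after the start were held for 39 of the 47 members. The response element core lay in 22 of them, or 56.4%, against 3.99% of 27025 genes with a window, and in 18 of the 22 a match lay before the start. Matches that overlap each other, as in Isg15, Irgm1, Gbp3 and Oas1a above, occurred in 5 members. The gamma-activated site TTCNNNGAA, which reads the same on both strands, lay in 11 windows, or 28.2%, against 9.55%. Irgm2 and Igtp, neighbours on chromosome 11, shared 57 of 59 aligned bases of the stretches shown. A match is a run of letters and was not tested for binding.

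Most members were slightly higher in KO brain, and none passed correction over all genes. The fitted log2 fold change (KO minus WT, with litter and sex in the model) was above 0 for 40 of the 47 members, where 51.4% of all genes were above 0. The median was 0.25 on the log2 scale, a 1.19-fold higher level in KO, against 0.0015 over all genes. At an unadjusted p under 0.05 by edgeR's quasi-likelihood test, 21 members were higher and 1 (Ifitm1) was lower, where the background over all genes was 2.88% higher and 2.27% lower. At a false discovery rate (FDR) under 0.05 the count was 0 of 47, against 0.00558% of all genes. Capn15 itself did not pass in that fit (log2 fold change -0.81, FDR 0.0747). Without litter F Capn15 did (log2 fold change -0.98, FDR 1.58e-06). DESeq2 gave 16 higher and 1 lower (2% and 1.22% of all genes) with none past FDR (0.0967%). With limma-voom 20 were higher and 1 lower (2.91% and 2.31%), with none past FDR. By edgeR's likelihood ratio test 22 were higher and 1 lower (2.92% and 2.28%), and 3 passed FDR (Ifitm1, Gbp3 and Irgm1, against 0.19%). The range of the 21 fold changes on the log2 scale was 0.13 to 0.86.

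The counts depended on litter D. Without it 11 members were higher and 1 lower at the same threshold, the background was 4.85% higher and 3.23% lower, and the median log2 fold change was 0.085. For 9 members the log2 fold change changed sign without it, none of them past the unadjusted threshold with all libraries (Stat2, Ifit2, Slfn8, Oasl2, Usp18, Herc6, Rsad2, Ifi27 and Ifi35). Without litter F, the pair that went against its labels for Capn15, 22 were higher and 1 lower (background 1.82% and 1.92%), the median was 0.27, and Irgm1 alone of the members passed FDR at 0.0486, as 0.0391% of all genes did. Without litter A 15 were higher (background 2.05%) and 1 lower. With genotype alone in the model 12 were higher and 1 lower (0.664% and 0.786%), and with the replicate number as a block beside sex 20 and 1 (2.53% and 1.99%).

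**Figure D1:**
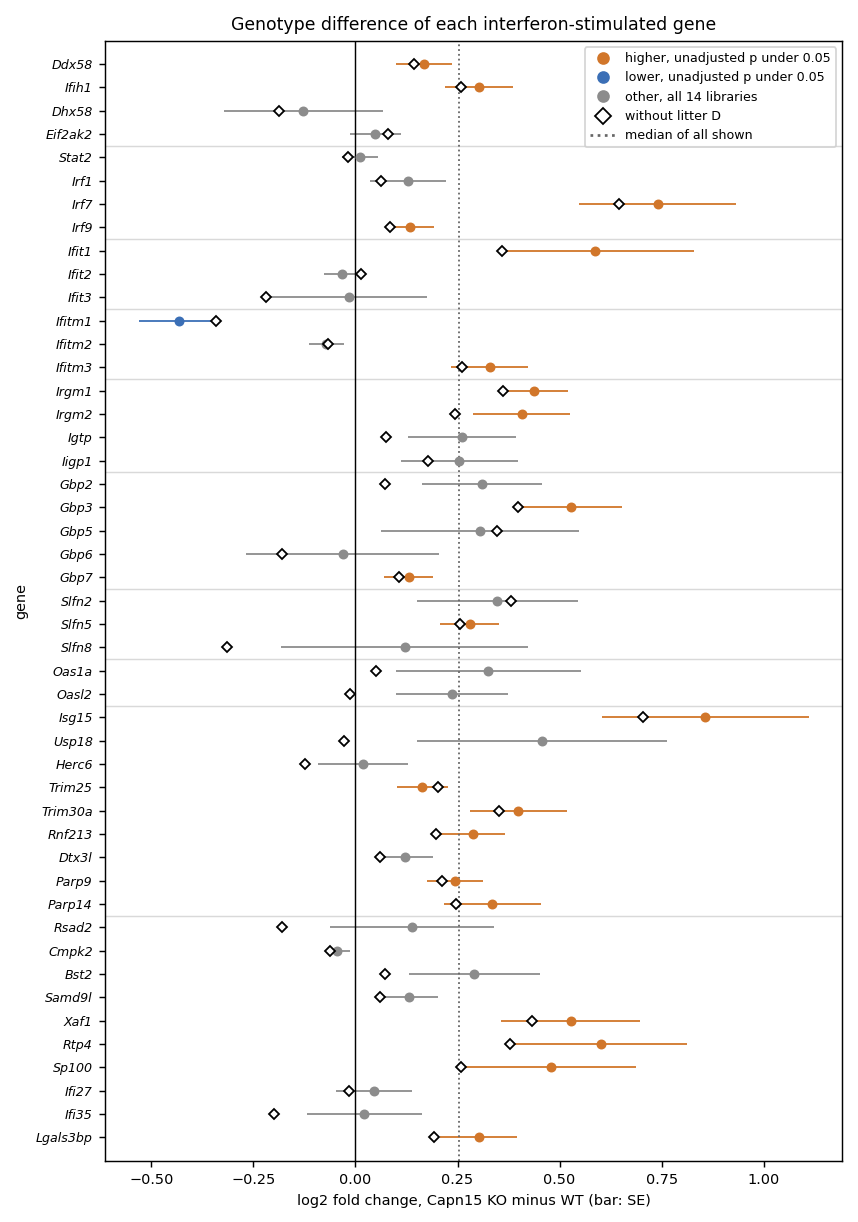
Fitted log2 fold change, KO minus WT, with its standard error for each of the 47 members, grouped by subfamily; orange and blue points had an unadjusted p under 0.05 (higher or lower in KO), grey points did not, and diamonds give the value without litter D. Of the 47 points 40 lie right of 0, Isg15 lies farthest right at 0.86, Ifitm1 lies left at -0.43, and the dotted line marks the median of 0.25.

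These genes were quiet in the newborn brain. The median of their mean levels was 2.80 CPM, against 17.4 over all genes, 8 of the 47 had a mean under 1 CPM and 20 a mean under 2 CPM. The smallest count of any member in any library was 8. Divided by exonic length, levels ran from 0.0748 CPM per kb for Sp100 to 29.9 for Ifitm2, and after Ifitm2 came Ifitm3 at 10.2, Cmpk2 at 7.26, Ifit2 at 5.45, Ifi27 at 4.67, Stat2 at 3.32, Bst2 at 3.13 and Irf9 at 2.68 CPM per kb. Among the 20 members under 2 CPM, 7 were higher at an unadjusted p under 0.05, where genes of that level gave 1.9%, and among the other 27 members 14 were.

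The cytosolic sensors recognise viral RNA and start interferon production or shut down translation. Of the 4 measured, 2 were higher in KO at an unadjusted p under 0.05 (2.88% of all genes), and the median log2 fold change was 0.11. Without litter D 1 of the 4 was higher (4.85% of all genes), and without litter F 1 was (1.82%). Ifih1 (MDA5, a sensor of long double-stranded RNA, chr2:62595798-62646255 in GRCm38) ranged in WT from 3.35 CPM to 4.25, median 3.51, and in KO from 3.54 to 5.08, median 4.55. Of the KO brains 5 lay above every WT brain, the lowest KO brain, replicate 3, lay among the WT brains, and 6 of 7 pairs were higher in KO. Its log2 fold change was 0.30 ± 0.08 (SE, 1.23-fold, edgeR FDR 0.5, exact permutation p 0.00758), and it kept an unadjusted p under 0.05 in all 9 distinct fits that left out a library. In a litter of 1 pair, leaving out either brain gives the same fit as leaving out the litter, so the 14 libraries give 9 such fits. Ddx58 (RIG-I, a sensor of short RNA with a 5′ triphosphate) ranged from 4.84 to 6.59 CPM in WT, median 5.99, and from 5.57 to 7.48 in KO, median 6.34. The groups overlapped over most of their range, with 2 KO brains above and 2 WT brains below all of the other genotype. The fitted log2 fold change was 0.17 ± 0.07 (SE, FDR 0.911, exact p 0.11), past the unadjusted threshold in 6 of those 9 fits. Ddx58 did not pass it by DESeq2.

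Eif2ak2 (PKR, the kinase that stops translation on binding double-stranded RNA) had the highest CPM of the sensors and did not pass. It ranged from 8.59 to 10.8 CPM in WT, median 9.66, and from 8.53 to 10.8 in KO, median 9.78, so that the groups covered the same span. For it the log2 fold change was 0.05 ± 0.06 (SE, FDR 1, exact p 0.591) and turned negative without litter C. Dhx58 (LGP2, a relative that modulates the other sensors) had a log2 fold change of -0.13 and did not pass.

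Among the transcription factors 2 of 4 were higher at an unadjusted p under 0.05 (2.88% of all genes), and 1 was without litter D (4.85%). Irf7 (chr7:141262706-141266481), the factor that amplifies type I interferon production and is itself strongly induced by it, gave 0.673 to 1.35 CPM in WT, median 0.891, and 0.933 to 1.83 in KO, median 1.5. Of the KO brains 5 lay above every WT brain and 5 WT brains lay below every KO brain, and all 7 pairs were higher in KO. Pair 1 differed most, by 1.21 on the log2 scale, and pair 2 least, by 0.21. The log2 fold change was 0.74 ± 0.19 (SE, 1.67-fold, FDR 0.466, exact p 0.00408), and leaving out single libraries moved it between 0.65 and 0.85. Exons of Phrf1 overlap Irf7 on the opposite strand, and the strand setting of the counting is not given in the sources used here.

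The parts of the complex that binds the response element differed less. Irf9, its DNA-binding part, ranged from 12.5 to 15.8 CPM in WT, median 14, and from 13.4 to 16.6 in KO, median 14.8. The ranges overlapped, with 2 KO brains above all WT brains, and the log2 fold change was 0.13 ± 0.06 (SE, FDR 0.958, exact p 0.0752), past the unadjusted threshold in 5 of those 9 fits. Its exons overlap those of Rnf31 on the same strand, so reads there cannot be assigned to either gene. Stat2, the highest of this subfamily by CPM, ranged from 17.0 to 22.6 CPM in WT, median 19.6, and from 16.7 to 23.2 in KO, median 19.8. The genotypes overlapped throughout, and its log2 fold change of 0.01 ± 0.04 (SE, FDR 1, exact p 0.653) was below 0 without the brains of litter D or of litter E. Irf1, a factor induced mainly by interferon gamma, had a log2 fold change of 0.13 and did not pass.

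**Figure D2:**
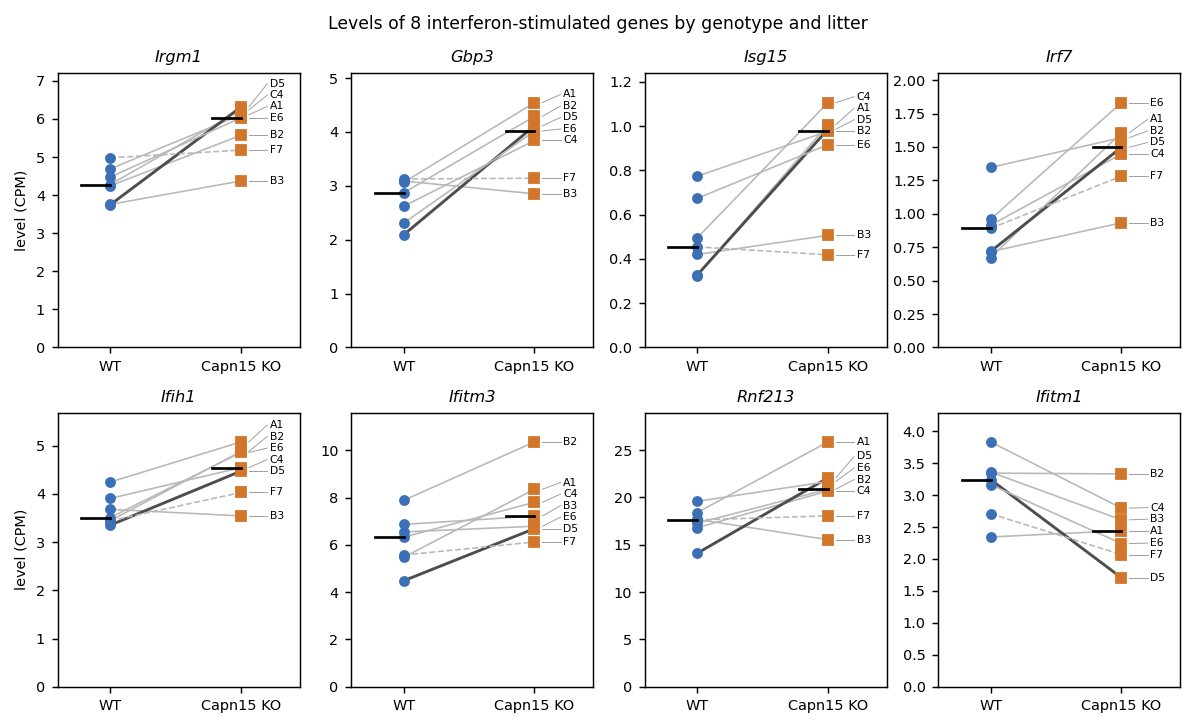
Levels in CPM (axes from 0) of Irgm1, Gbp3, Isg15, Irf7, Ifih1, Ifitm3, Rnf213 and Ifitm1 in each library, WT as circles and KO as squares, with lines joining the brains of a pair, a dark line for litter D, a dashed line for litter F and short bars at the medians. The lines of Irgm1, Irf7 and Ifitm3 slope upwards from WT to KO in all 7 pairs, those of Ifitm1 slope downwards in 6, and the WT and KO ranges overlap in every panel.

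The IFIT proteins bind viral RNA through its cap or triphosphate end. Of the 3, only Ifit1 was higher at an unadjusted p under 0.05 (2.88% of all genes). The median of the subfamily was -0.02 on the log2 scale. Ifit1 ranged from 0.414 to 1.07 CPM in WT, median 0.642, and from 0.586 to 1.61 in KO, median 1.0. The ranges overlapped, 3 KO brains lay above every WT brain, and the lowest WT brain was that of litter D. Its log2 fold change of 0.59 ± 0.24 (SE, FDR 0.933, exact p 0.0577) was 0.36 without litter D and then did not pass. Ifit2 stood far higher, from 17.5 to 24.4 CPM in WT, median 23.4, and from 18.1 to 23.1 in KO, median 21.9. The KO range lay inside the WT range, and the log2 fold change was -0.03 ± 0.04 (SE, FDR 1, exact p 0.642). Ifit3 had a log2 fold change of -0.02, and 51.2% of its 50-base stretches also occur in other genes, among them Ifit3b, so its counts are uncertain. The printed Ifit1 promoter carries 2 copies of the core.

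The IFITM proteins sit in endosomal membranes and block the fusion of entering viruses, and the 3 clustered genes on chromosome 7 differed in the sign of their difference. Ifitm3 (chr7:141009586-141010770) ranged from 4.48 to 7.88 CPM in WT, median 6.33, and from 6.12 to 10.4 in KO, median 7.22. The lowest brain was the WT brain of litter D and 2 KO brains lay above all WT brains, while all 7 pairs were higher in KO. The log2 fold change of Ifitm3 was 0.33 ± 0.09 (SE, 1.26-fold, FDR 0.587, exact p 0.0449), with an unadjusted p under 0.05 in all 9 distinct fits without a library.

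Ifitm1 (chr7:140967221-140969825), also a marker of early germ cells and mesoderm, was the only member lower in KO at an unadjusted p under 0.05. It ranged from 2.34 to 3.83 CPM in WT, median 3.24, and from 1.71 to 3.33 in KO, median 2.44. No KO brain lay above the WT range, the lowest KO brain was that of litter D, and 6 of 7 pairs were lower in KO. The log2 fold change was -0.43 ± 0.10 (SE, 0.742-fold, FDR 0.371, exact p 0.0291), between -0.52 and -0.34 in the fits without 1 library and past the unadjusted threshold in all 9. Ifitm2, the subfamily's most abundant gene, ranged from 17.8 to 21.5 CPM in WT, median 20.1, and from 17.4 to 22 in KO, median 19.8. The groups overlapped almost fully, with a log2 fold change of -0.07 ± 0.04 (SE, FDR 1, exact p 0.438), and 48.5% of its 50-base stretches also occur in other genes.

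The immunity-related GTPases (IRG) load onto vacuoles that hold parasites or bacteria, and the Irgm proteins regulate the others. Their summed level was higher in KO in all 7 pairs, from 7.18 to 9.79 CPM in WT, median 9.56, and from 9.62 to 12.8 in KO, median 11.6. Irgm1, on the minus strand of chr11:48861968-48871683, had the smallest FDR of any member. It gave 3.74 to 4.98 CPM in WT, median 4.28, and 4.37 to 6.31 in KO, median 6.03. All KO brains but replicate 3 lay above every WT brain. All 7 pairs were higher in KO, from 0.06 on the log2 scale in pair 7 to 0.75 in pair 5. The log2 fold change was 0.44 ± 0.08 (SE, 1.35-fold, FDR 0.176, exact p 0.00291), and 0.36 without litter D.

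Irgm2 ranged from 1.31 to 2.69 CPM in WT, median 2.34, and from 2.35 to 3.19 in KO, median 2.74. In each genotype 4 brains lay outside the range of the other, and 6 of 7 pairs were higher in KO. Its log2 fold change was 0.41 ± 0.12 (SE, 1.33-fold, FDR 0.614, exact p 0.00991), and 0.24 without litter D, where it did not pass. Igtp (Irgm3, log2 fold change 0.26, or 0.07 without litter D) has exons that overlap Irgm2 on the same strand, so these genes are not independent measurements. Iigp1 (Irga6, an effector that coats vacuoles) had a log2 fold change of 0.25 and did not pass, although it was higher in all 7 pairs.

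The guanylate-binding proteins (GBP) are larger GTPases that lyse vacuoles and bacteria and are classic targets of interferon gamma. Of the 5 genes, 2 were higher at an unadjusted p under 0.05 (2.88% of all genes), and 1 was without litter D (4.85%). Gbp3 (chr3:142560026-142573209) ranged from 2.09 to 3.13 CPM in WT, median 2.87, and from 2.85 to 4.54 in KO, median 4.02. Again all KO brains but replicate 3 lay above every WT brain, and 6 of 7 pairs were higher. The log2 fold change of Gbp3 was 0.53 ± 0.12 (SE, 1.44-fold, FDR 0.41, exact p 0.00524), between 0.40 and 0.63 in the fits without 1 library.

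Gbp7, the most abundant of the subfamily, ranged from 6.03 to 7.37 CPM in WT, median 6.30, and from 6.72 to 7.68 in KO, median 7.14. The ranges overlapped, 4 WT brains lay below every KO brain, and the log2 fold change was 0.13 ± 0.06 (SE, FDR 0.96, exact p 0.0594), past the unadjusted threshold in 2 of the 9 fits. Gbp2 and Gbp5, each with a log2 fold change of 0.31, did not pass. Without litter D the value was 0.07 for Gbp2 and 0.35 for Gbp5, and without litter F it was 0.46 and 0.48. Gbp6 did not pass either, at -0.03, of whose 50-base stretches 59.7% occur in other genes.

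The Schlafens are regulators of cell growth and of translation through tRNA. Slfn5 was the 1 of 3 that was higher at an unadjusted p under 0.05 (2.88% of all genes). It ranged from 4.29 to 7.54 CPM in WT, median 6.43, and from 5.84 to 8.85 in KO, median 6.46. The medians were nearly equal and the ranges overlapped widely, yet 6 of 7 pairs were higher in KO. Its level also differed by litter, from a mean of 5.37 CPM in litter D to 8.2 in litter A. With litter in the model the log2 fold change was 0.28 ± 0.07 (SE, 1.21-fold, FDR 0.47), whereas the exact permutation test, which ignores litter, gave p 0.142. Slfn5os overlaps it on the opposite strand. Slfn2 and Slfn8 had log2 fold changes of 0.35 and 0.12 and did not pass, and without litter D Slfn8 was at -0.31.

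The OAS family makes the second messenger that activates RNase L, and 0 of the 2 measured passed an unadjusted p under 0.05. Of all genes 2.88% were higher and 2.27% lower. Oasl2 (an OAS-like relative with ubiquitin-like domains) ranged from 1.33 to 2.54 CPM in WT, median 2.27, and from 1.57 to 2.83 in KO, median 2.3. The ranges overlapped, and the log2 fold change of 0.24 ± 0.14 (SE, FDR 1, exact p 0.285) was -0.01 without litter D. Oas1a had a log2 fold change of 0.33, or 0.05 without litter D, with 57.6% of its 50-base stretches found in other genes.

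Isg15 is the ubiquitin-like protein that is conjugated to other proteins in interferon-treated cells. The subfamily around it held the most members higher at an unadjusted p under 0.05, 6 of 9 (2.88% of all genes). Without litter D 5 were higher (4.85%). The median log2 fold change of the subfamily was 0.29. Its summed level ran from 34.2 to 44.5 CPM in WT, median 42, and from 40.6 to 56.4 in KO, median 47.9, and was higher in KO in 6 of 7 pairs. Isg15 (chr4:156199424-156200818), with the longest run of response elements among the stretches printed above, ranged from 0.325 to 0.773 CPM in WT, median 0.454, and from 0.419 to 1.11 in KO, median 0.977. The KO range reached above every WT brain in 5 brains and 2 KO brains lay among the WT brains. Pairs 1, 4 and 5 differed by 1.52, 1.10 and 1.48 on the log2 scale, and pair 7 by -0.11. The log2 fold change was 0.86 ± 0.25 (SE, 1.81-fold, FDR 0.626, exact p 0.0245), the greatest among the 47.

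Rnf213, a giant ubiquitin ligase that coats bacteria and is linked to moyamoya disease of brain arteries, was the subfamily's most abundant gene. It ranged from 14.1 to 19.6 CPM in WT, median 17.6, and from 15.5 to 25.9 in KO, median 20.9. Of the KO brains 5 lay above every WT brain, and only the WT brain of litter D lay below every KO brain. Its log2 fold change was 0.29 ± 0.08 (SE, 1.22-fold, FDR 0.494, exact p 0.0396), and 0.20 without litter D. A930037H05Rik overlaps it on the opposite strand.

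Parp9 and its partner Dtx3l form an ADP-ribosyl and ubiquitin transferase complex, and their exons overlap on opposite strands. Parp9 ranged from 3.13 to 4.82 CPM in WT, median 4.41, and from 4.27 to 5.74 in KO, median 5.14. The lowest brain was the WT brain of litter D, 4 KO brains lay above all WT brains, and the log2 fold change was 0.24 ± 0.07 (SE, FDR 0.551, exact p 0.0734). Dtx3l had a log2 fold change of 0.12 and did not pass. Parp14, a mono-ADP-ribosyltransferase, ranged from 1.96 to 3.35 CPM in WT, median 2.97, and from 2.75 to 4.41 in KO, median 3.39. Its ranges overlapped, only 4 of 7 pairs were higher in KO, and the log2 fold change was 0.34 ± 0.12 (SE, FDR 0.784, exact p 0.0833). It was past the unadjusted threshold in 7 of the 9 fits without a library, and without litter D, at 0.25, it did not pass.

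Trim25, the ubiquitin ligase that activates RIG-I, ranged from 5.76 to 7.66 CPM in WT, median 6.70, and from 6.14 to 8.1 in KO, median 7.38. The groups overlapped, with 3 KO brains above all WT brains, and the log2 fold change was 0.16 ± 0.06 (SE, FDR 0.872, exact p 0.0857). Trim25 was past the unadjusted threshold in 7 of the 9 fits without a library. Trim30a, a rodent TRIM protein that restrains inflammatory signalling, ranged from 1.44 to 1.84 CPM in WT, median 1.57, and from 1.55 to 2.64 in KO, median 2.07. Above all WT brains lay 4 KO brains, and the log2 fold change was 0.40 ± 0.12 (SE, 1.32-fold, FDR 0.632, exact p 0.0163). Usp18, which removes Isg15 and damps the receptor, had a log2 fold change of 0.46 that did not pass and was -0.03 without litter D. The Isg15 ligase Herc6, at 0.02, did not pass either.

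Of the 10 other effectors 4 were higher at an unadjusted p under 0.05 (2.88% of all genes). Xaf1, which antagonises an inhibitor of apoptosis, ranged from 0.58 to 0.865 CPM in WT, median 0.769, and from 0.707 to 1.35 in KO, median 1.01. Of the KO brains 6 lay above every WT brain, the exception being the library labelled KO replicate 7, and the log2 fold change was 0.53 ± 0.17 (SE, 1.44-fold, FDR 0.746, exact p 0.00291). Rtp4, a receptor chaperone with antiviral activity, ranged from 0.98 to 2.07 CPM in WT, median 1.65, and from 1.15 to 3.47 in KO, median 2.21. Above every WT brain lay 5 KO brains, and the log2 fold change was 0.60 ± 0.21 (SE, 1.52-fold, FDR 0.784, exact p 0.0449).

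Lgals3bp, a secreted glycoprotein that binds galectins, ranged from 3.07 to 7.17 CPM in WT, median 4.76, and from 5.1 to 8.62 in KO, median 5.51. Only 1 KO brain lay above the WT range, 6 of 7 pairs were higher in KO, and the log2 fold change was 0.30 ± 0.09 (SE, FDR 0.686, exact p 0.216). Sp100, a nuclear body protein that represses viral genomes, ranged from 0.327 to 0.673 CPM in WT, median 0.42, and from 0.345 to 0.879 in KO, median 0.634. The ranges overlapped, and the log2 fold change of 0.48 ± 0.21 (SE, FDR 0.951, exact p 0.116) was 0.26 without litter D. Without that litter Lgals3bp was at 0.19, Rtp4 at 0.38 and Xaf1 at 0.43, and all 4 effectors had an unadjusted p above the threshold. The value of Lgals3bp ran from 0.19 to 0.48 in the fits without 1 library.

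Cmpk2, a mitochondrial nucleotide kinase beside Rsad2 on chromosome 12, was the most abundant member by CPM. It ranged from 27.7 to 33.2 CPM in WT, median 31.1, and from 27.7 to 31.2 in KO, median 30.5. The KO range lay inside the WT range, and the log2 fold change was -0.04 ± 0.03 (SE, FDR 1, exact p 0.44). The remaining effectors, Rsad2 (viperin), Bst2 (tetherin), Samd9l, Ifi27 and Ifi35, had log2 fold changes between 0.02 and 0.29 and did not pass. Without litter D these ran from -0.20 for Ifi35 to 0.07 for Bst2.

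**Figure D3:**
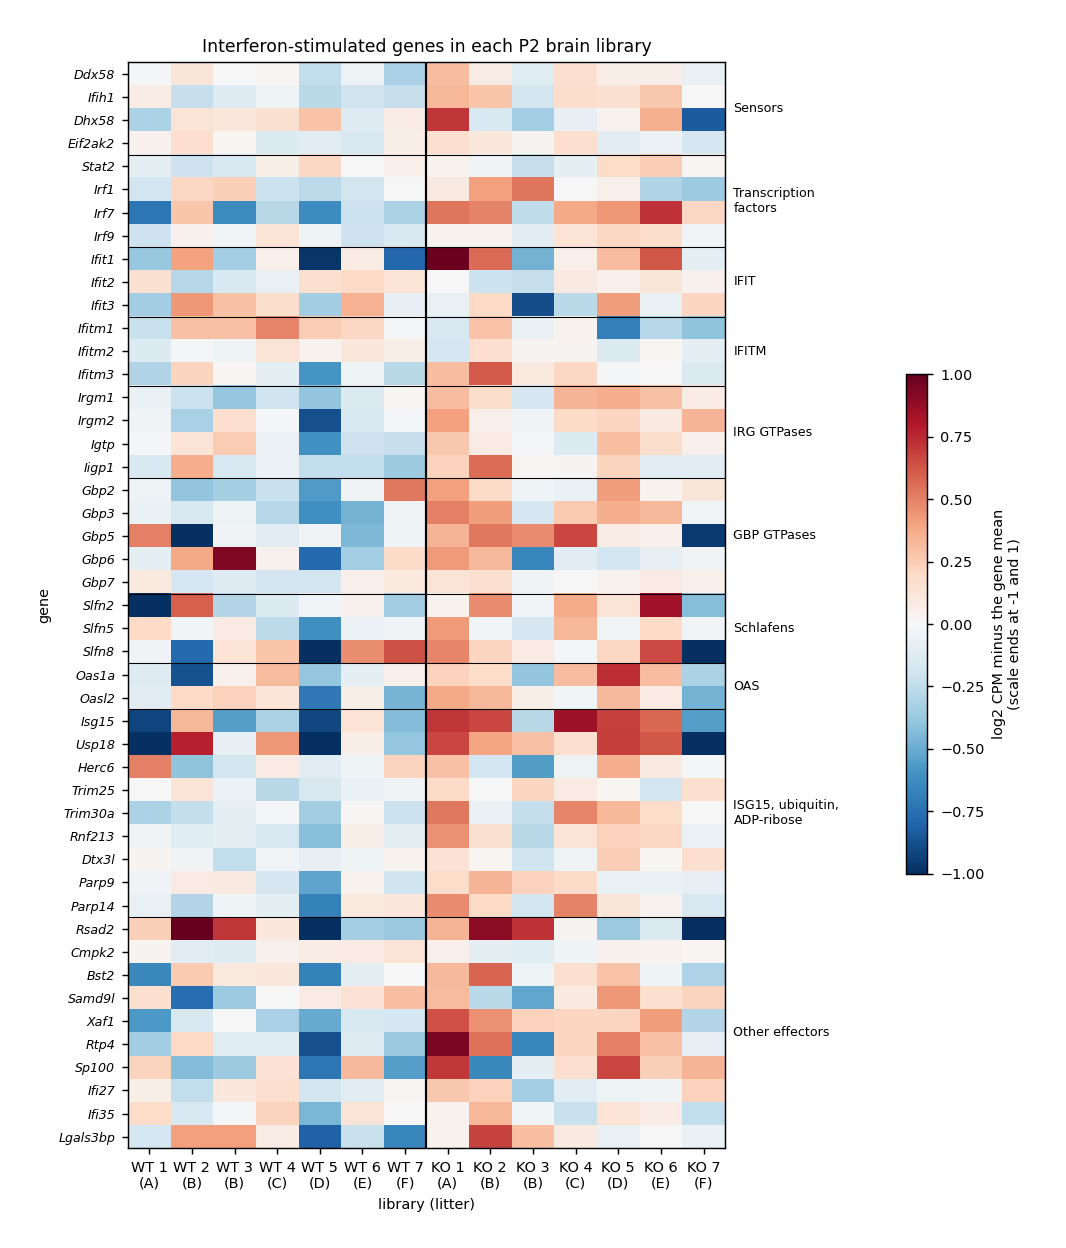
Log2 CPM of each of the 47 members minus its mean over the 14 libraries (colour from -1 to 1), with genes in rows by subfamily and libraries in columns with their litter in brackets. WT replicate 5 (litter D) is the lowest column, with a median of -0.39, and KO replicate 1 (litter A) the highest, with a median of 0.31.

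Single libraries stood apart across the members. WT replicate 5, of litter D, was the lowest of all 14 libraries for 23 of the 47 members, with a median deviation of -0.39 on the log2 scale from the mean over libraries, while the other 6 WT brains had medians between -0.07 and -0.01. KO replicate 1, of litter A, was the highest of the 14 for 14 members, with a median of 0.31. The KO brains did not all lie high: KO replicate 3 had a median of -0.105 and the library labelled KO replicate 7 one of -0.068. The summed level of all members was 227 to 252 CPM in WT, median 245.5, and 234 to 287 in KO, median 270, and was higher in KO in 5 of 7 pairs.

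Within litters the difference varied widely. In pair 1 (litter A) 42 of 47 members were higher in KO, with a median difference of 0.32 on the log2 scale, and in pair 5 (litter D) 41 were, with a median of 0.57. The 2 pairs of litter B, matched by replicate number alone, went apart. Pair 2 had 34 members higher and a median of 0.20, and pair 3 had 20 members and -0.08. Pair 4 had 29 members higher and a median of 0.09, and pair 6 had 36 and 0.15. In the pair of litter F 22 members were higher and the median was -0.03. The SD of the 7 medians was 0.22, while the medians over all genes stayed within 0.007 of 0.

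**Figure D4:**
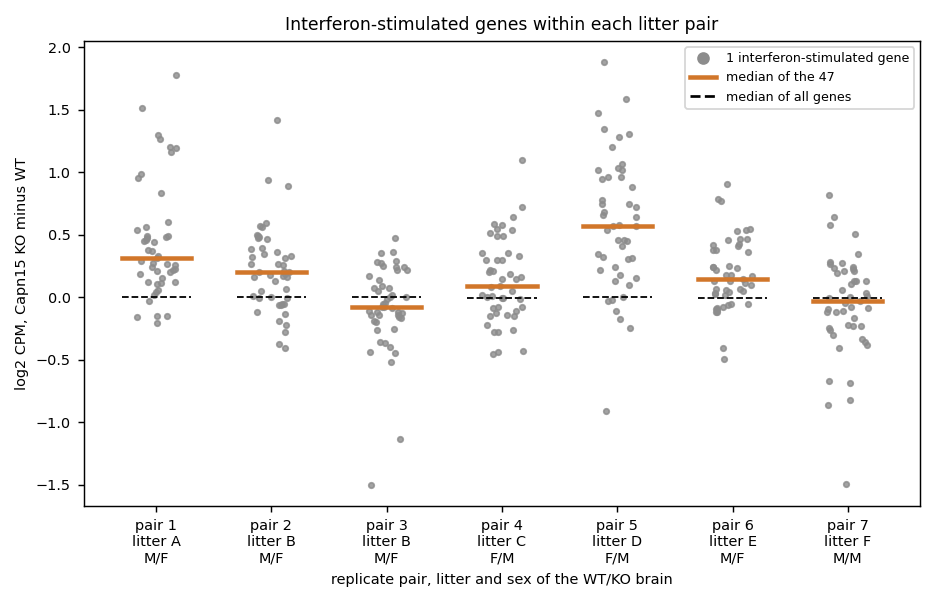
Differences in log2 CPM, KO minus WT, within each of the 7 pairs, with the litter letter; each grey point is 1 of the 47 members, the orange bar is their median and the dashed line the median of all genes. The orange bars run from -0.08 in pair 3 to 0.57 in pair 5, and those of pairs 3 and 7 lie below 0.

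Over single members, 4 (Irf7, Ifitm3, Iigp1 and Irgm1) were higher in KO in all 7 pairs, where 0.496% of all genes were, 19 were higher in 6 or 7 pairs (5.82% of all genes), and 1, Ifitm1, was lower in 6 or 7 (5.52%). With litter B matched the other way, KO replicate 3 was below WT replicate 2 for Irf7, Ifitm3 and Iigp1. The levels were 0.933 against 1.347, 7.223 against 7.885 and 1.199 against 1.522 CPM. Irgm1 was higher in KO either way. For no member did the WT and KO ranges lie apart.

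Markers of other cell types also differed between these brains. In the genotype test by edgeR, 2.88% of all genes were higher and 2.27% lower at an unadjusted p under 0.05. Red blood cell markers summed to 31.2 CPM in WT replicate 5 and 36.1 in KO replicate 5, both of litter D, against at least 79.6 in each other library, and 0 of their 7 genes passed the genotype test. Choroid plexus markers ran from 757 to 996 CPM in WT and from 620 to 865 in KO, with 6 of 7 genes lower at an unadjusted p under 0.05 and the sum lower in all 7 pairs. Leptomeningeal markers ran from 232 CPM, in WT replicate 5, to 354 in WT and from 258 to 324 in KO, with 3 of 6 lower (Lum, Slc6a13 and Slc22a6).

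Microglial markers ran from 142 to 184 CPM in WT and from 163 to 196 in KO, with 2 of 10 higher (C1qb and Trem2), and border macrophage markers from 53.5 to 75.9 and 49.5 to 71.8, with 1 of 6 lower (Mrc1). Endothelial markers ran from 231 to 300 CPM and 244 to 296, with 1 of 8 higher (Cldn5), and neuronal markers from 6582 to 6934 and 6701 to 6900, with 1 of 6 higher (Dcx). Of 8 lymphocyte markers 1 was analysed here, at 0.2 to 0.65 CPM, and of 6 granulocyte markers 2 were. With 2.88% of all genes higher and 2.27% lower, 1 such gene in a list this short may be background. No analysed marker was at 0 in any library, and the part of these cells in the members' differences was not tested.

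Litter itself had a term at FDR under 0.05 for 9 of the 47 members, or 19.1%, against 29.6% of all genes. These were Stat2, Irf1, Ifit2, Slfn5, Parp9, Rsad2, Cmpk2, Samd9l and Lgals3bp. Rsad2, which makes a chain-terminating nucleotide, varied most, with litter means of 1.88 CPM in A, 2.92 in B, 1.61 in C, 0.782 in D, 1.31 in E and 0.96 in F, a 3.74-fold span. Samd9l, a restrictor of translation, was by contrast lowest in litter B at 7.17 CPM and highest in D at 11.9, and Lgals3bp lowest in D at 4.08 and highest in B at 7.39. Over all members the ratio of the highest to the lowest litter mean had a median of 1.36. Sex had a term at FDR under 0.05 for 0 of 47 members by edgeR (0.0669% of all genes), and 3 members (Stat2, Ifitm1 and Slfn5) had an unadjusted p under 0.05 for sex, against 5.04%.

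Of 22 members with the response element core in the promoter window, 11 were higher at an unadjusted p under 0.05 (2.88% of all genes). Their median log2 fold change was 0.30. Of the 17 members with a window but no core 7 were higher and 1 was lower, with a median of 0.13, and of the 8 without a window 3 were higher. Without litter D 7 of the 22 with the core were higher, with a median of 0.12. Of the 17 without a core 3 were then higher and 1 lower, with a median of 0.06. Of the 8 without a window 1 was higher. The background without litter D was 4.85% higher and 3.23% lower. The difference between these sets was not tested.

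The rest of the pathway was read from lists of its other genes. None of 21 interferon ligands was analysed here. Of 14 receptor, JAK kinase and STAT genes 0 passed an unadjusted p under 0.05 by edgeR, DESeq2 or limma-voom, and their median log2 fold change was 0.003. Of 20 sensing and adaptor genes and 18 negative regulators 0 passed by the same tests. By edgeR 2.88% of all genes were higher and 2.27% lower, so lists this short may hold no such gene by background alone. Among the sensing and adaptor genes, Nfkb1 was lower at that threshold without litter D and Irf5 higher without litter F.

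Of 38 other interferon-stimulated genes outside the list 6 were higher and 0 lower at an unadjusted p under 0.05 by edgeR (2.88% and 2.27% of all genes). By limma-voom the same 6 were higher (2.91% of all genes). DESeq2 gave 3 higher (Ifi44, Ifi27l2a and B2m, against 2% of all genes). The median log2 fold change of the 38 by edgeR was 0.11. Without litter D 2 of the 38 were higher (Ifi27l2a and Ly6a), close to the 4.85% of all genes, and the median was 0.03. Ifi27l2a, a small hydrophobic protein induced in microglia and border cells, ranged from 0.305 to 0.889 CPM in WT, median 0.626, and from 0.602 to 1.74 in KO, median 1.0, with a log2 fold change of 0.80 ± 0.22 (SE, FDR 0.474, exact p 0.0355). Uba7, the enzyme that activates Isg15, ranged from 1.28 to 1.81 CPM in WT, median 1.503, and from 1.57 to 2.38 in KO, median 1.94. It was higher in KO in all 7 pairs, with a log2 fold change of 0.29 ± 0.10 (SE, FDR 0.784, exact p 0.0128). Uba7 did not pass the unadjusted threshold by DESeq2 or without litter D. The other 4 of the 6 by edgeR, by log2 fold change, were Ifi44 at 0.72, Gbp4 at 0.36, Ly6a at 0.30 and Helz2 at 0.23, with FDR from 0.866 to 0.959.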

How the data were processed

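Total RNA of whole P2 brains, depleted of ribosomal RNA, was sequenced in 7 WT and 7 Capn15 KO libraries. The authors trimmed reads with Trimmomatic, aligned them with STAR to GRCm38 and deposited raw read counts per gene, already filtered to 17927 genes by a rule not given in the sources used here. HTSeq-count is named in the study's methods and featureCounts in the submitters' processing notes, and the labels and the methods also differ in the library kit and the sequencer. The annotation release and the strand setting are not given in the sources used here. The labels name the same batch for all 14 libraries. Litter and sex were read from the column names of the counts. Nothing states that litters were processed apart. Where brains of 1 litter share rearing and handling, litter effects cannot be told apart from these. The members and the pathway lists were chosen with earlier results of these data known, and 5 members (Irgm1, Gbp3, Slfn5, Rnf213 and Isg15) are on a list the study chose from these same libraries, so none is independent evidence. The study reports these 5 as increased at an FDR under 0.05, by edgeR with sex and litter as variables. Its log2 fold changes are larger in size than those given here, for Capn15 as for the 5 members. Without litter F the values here were 0.51 for Irgm1, 0.63 for Gbp3, 0.33 for Slfn5, 0.34 for Rnf213 and 1.01 for Isg15. These too are smaller than the study's. By the quasi-likelihood test none of the 5 passed FDR with all 14 libraries, and Irgm1 alone did without litter F. The reason for these differences was not tested.

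Counts of all genes were fitted in edgeR 4.0.16 (R 4.3.3) with TMM factors and genotype, litter and sex, using the quasi-likelihood test and Benjamini-Hochberg adjustment over 17927 genes (FDR). CPM values use the TMM factors, and log2 CPM a prior count of 2. Single genes were also compared by a two-sided exact permutation test of mean log2 CPM over the 3432 ways to split the libraries 7 and 7, which cannot give a p below 0.000583. It uses neither litter nor sex and is not adjusted. A gene is given in full where its unadjusted p was under 0.05 or where its mean CPM was the highest of its subfamily. DESeq2 1.42.0, limma 3.58.1 (voom), edgeR's likelihood ratio test, other scalings, models and filters, and fits without each library or litter were alternatives. The procedure was tested on simulated counts, which held no litter or sex effects and no pair that went against its labels. Replicate numbers pair brains of the same litter, and the correlation of same-numbered deviations from the group means ran from -0.46 to 0.45 over the pairs, mean 0.12 over 15250 genes. Gene positions and exons are from GENCODE M21 and promoter windows from RefSeq, GRCm38.p6, with positions counted from 1. No pair of libraries agreed within sampling noise (smallest chi-square per gene 4.66). Precision is limited by 37620954 to 70910163 counts per library and 7 brains per genotype. Reads carry no molecular identifiers.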

Additional observations from a re-analysis of the deposited data

Results flagged for a closer look

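In 7 of 96 groups of 7 libraries tested, the gap between the outermost library and its neighbour, divided by the whole range of log2 CPM, was above Dixon's critical value of 0.568, where chance gives about 4.8. For Capn15 this held for the library labelled WT replicate 7, with a gap of 0.7612, and for the library labelled KO replicate 7, with a gap of 0.6474, both of litter F. The same KO library was the lowest for Usp18 (gap 0.704), Gbp5 (0.6103) and Slfn8 (0.5845). WT replicate 2 was the highest WT library for Iigp1, with a gap of 0.5885, and WT replicate 3 the lowest for Dtx3l, with a gap of 0.5787.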

How the results depend on the processing

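The count of members higher in KO at an unadjusted p under 0.05 was 12 of 47 with genotype alone and 11 of 47 without litter D. Members that share sequence or exons with another gene were also left out (chosen after seeing the data). Of the 23 that remained 11 were higher, with a median log2 fold change of 0.29. Without single libraries the count higher among all 47 ran from 11 to 22, the lowest without KO replicate 5 or WT replicate 5. The count lower in KO was 2 without litter B and 1 to 2 without single libraries. The count past FDR was 3 by the likelihood ratio test and 1 without litter F, and 0 to 1 without single libraries, the 1 being without KO replicate 7. The median log2 fold change stayed above 0 in every alternative, from 0.085 to 0.29. Without the 5 members on the study's list 16 of 42 were higher, with a median of 0.20.

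The replicate block with sex gave 20 higher and 1 lower with a median of 0.25, and without sex 20 and 1 with a median of 0.20. In the pairing check 1 WT library was closest to its own number. Of the 22 members past the unadjusted threshold, 17 also passed with DESeq2, 13 with genotype alone and 12 without litter D.

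Among members given in full 4 changed sign, none of them past the unadjusted threshold. Eif2ak2 was -0.03568 without litter C (-0.0357 to 0.1 without single libraries), Stat2 -0.0179 without litter D and -0.00796 without litter E (-0.01789 to 0.03176), Ifit2 0.01397 without litter D (-0.09057 to 0.01397) and Oasl2 -0.01251 without litter D (-0.01253 to 0.4539). Without litter D the log2 fold change also changed sign for Usp18 (0.46 to -0.03), Slfn8 (0.12 to -0.31), Rsad2 (0.14 to -0.18), Herc6 (0.02 to -0.12), Ifi35 (0.02 to -0.20) and Ifi27 (0.05 to -0.01), and without litter F for Gbp6 (-0.03 to 0.01). The difference in mean log2 CPM of Stat2 ran from -0.001462 to 0.07736 without single libraries. The cause was not tested. The 8 members with a mean under 1 CPM, Isg15, Ifit1, Xaf1 and Sp100 among them, rest on the fewest reads.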
